A study of Mus musculus with 10 samples.

Results

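The respiratory chain and ATP synthase of the mitochondrial inner membrane are described here gene by gene in sorted mouse B lineage cells. Members were the protein coding genes whose symbol begins with Nduf, Uqcr or Atp5, with Cox followed by a digit of 4 to 8, or with mt-Nd, mt-Co, mt-Cytb or mt-Atp, together with Sdha, Sdhb, Sdhc and Sdhd. This rule found 107 genes of 30205 genes in the files, 21556 of them protein coding. The nuclear genome holds 94 of the 107 and the mitochondrial genome 13. By complex, the nuclear members were 38 genes of complex I, 8 complex I assembly factors, 4 genes of complex II, 8 of complex III, 18 of complex IV, 17 of complex V and Atp5s, an ATP synthase factor. Complexes were assigned by symbol, so Ndufa4 is counted in complex I throughout, although it has since been assigned to complex IV. The mitochondrial members were 7 genes of complex I, 1 of complex III, 3 of complex IV and 2 of complex V. A filter on low counts left 101 members for testing. The 6 that did not pass were Ndufa4l2, Cox4i2, Cox7b2, Cox8b, Cox8c and an overlapping gene record that also bears the symbol Atp5o.

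RNA sequencing was read from 10 libraries in 5 groups of 2, and every mouse group was on the C57BL/6 background. Lymphoma cells came from Rosa-NIKΔT3flSTOP x Rosa-Notch2ICN x CD19Cre mice, which carry an activating NIK allele and the intracellular part of Notch2. The doubly activated group had the same 3 alleles and was marginal zone precursor B cells from lymph node. The NF-kB-activated group was marginal zone precursor B cells with Rosa-NIKΔT3flSTOP and CD19Cre. The Notch-labelled group was labelled marginal zone B cells from lymph node with Rosa-Notch2ICN and CD19Cre. The control group was wild-type marginal zone precursor B cells, for which no Cre is given. Cre acts in B lineage cells in these mice, so the alleles are switched on there and not in other cells. Apart from the lymphoma, the cells are described as pre-malignant. Notch-labelled and control cells differ in genotype and in the named cell type at once, so the effects of these cannot be told apart. The labels give neither the age nor the sex of the animals. Nor do they state that the paired libraries stem from different animals, so the tests here cover the spread between libraries, which may be technical.

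The respiratory chain passes electrons from NADH (complex I) and succinate (complex II) through ubiquinone to complex III, then by cytochrome c to complex IV, which reduces oxygen. Complexes I, III and IV pump protons, and complex V, the ATP synthase, uses the gradient to make ATP. The mitochondrial genome encodes the core membrane subunits of complexes I, III, IV and V on long transcripts that are cut into single messages, whereas complex II and all the other subunits are encoded in the nucleus and imported. Resting B cells respire at a low level and raise mitochondrial mass and oxidative metabolism when they are activated.

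Library totals lay between 16380889 and 23102081 estimated counts. The label check was mixed. Levels are given as CPM, a gene's share of the library's counts after scaling by edgeR's TMM factors. Map3k14, which encodes NIK, had 153 and 153 CPM in lymphoma, 244 and 255 CPM in doubly activated, 220 and 217 CPM in NF-kB-activated, 36.5 and 33.4 CPM in Notch-labelled and 103 and 130 CPM in control libraries. It was higher than in control libraries where the NIK allele is labelled. Notch2 had 155 and 178 CPM in lymphoma, 702 and 753 CPM in doubly activated, 795 and 772 CPM in NF-kB-activated, 284 and 278 CPM in Notch-labelled and 652 and 690 CPM in control libraries. The log2 difference of Notch-labelled from control libraries was -1.25 (edgeR adjusted p = 9.55e-08), which goes against the label. Doubly activated libraries were not higher than NF-kB-activated libraries (log2 -0.11, edgeR adjusted p = 0.447). Lymphoma was lower than doubly activated libraries of the same alleles (log2 -2.13, edgeR adjusted p = 1.98e-09). The Notch2 count thus did not bear out the Notch2 allele in any group labelled with it. The allele holds only the intracellular part of Notch2, and the gene's count does not separate it from the native gene. The Notch-labelled libraries also stood apart in cell type markers. The summed level of 8 B cell markers was 3796 and 3547 CPM in Notch-labelled against 9721 and 9577 CPM in control libraries, and 6104 and 5862 CPM in lymphoma against 8407 and 8285 CPM in doubly activated libraries. The 4 stroma markers summed to 593 and 797 CPM in Notch-labelled libraries and to between 1.44 and 3.65 CPM elsewhere, with Dcn at 0 outside the Notch-labelled libraries. In sorted bulk samples, fewer cells of a type and less RNA per cell cannot be told apart.

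Nuclear and mitochondrial transcripts of the same complexes went opposite ways in Notch-labelled libraries. In CPM, the summed nuclear level was higher in lymphoma than in doubly activated libraries, while the summed mitochondrial level was not. The 85 nuclear subunit genes summed to 7752 and 6873 CPM in lymphoma, 5398 and 5574 CPM in doubly activated, 5091 and 5018 CPM in NF-kB-activated, 8172 and 8154 CPM in Notch-labelled and 5248 and 5272 CPM in control libraries. The 4 lymphoma and Notch-labelled libraries were thus the highest, and the other 6 lay close together. The 13 mitochondrial genes summed to 36430 and 35519 CPM in lymphoma, 36284 and 35238 CPM in doubly activated, 32137 and 32494 CPM in NF-kB-activated, 17944 and 18736 CPM in Notch-labelled and 40848 and 31349 CPM in control libraries. Notch-labelled libraries were the lowest, and the 2 control libraries lay farther apart than those of any other group. The ratio of mitochondrial to nuclear member counts was 4.62 and 5.08 in lymphoma, 6.59 and 6.20 in doubly activated, 6.18 and 6.34 in NF-kB-activated cells, 2.17 and 2.27 in Notch-labelled cells and 7.64 and 5.83 in control libraries. Sums were described without a test.

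**Figure D1:**
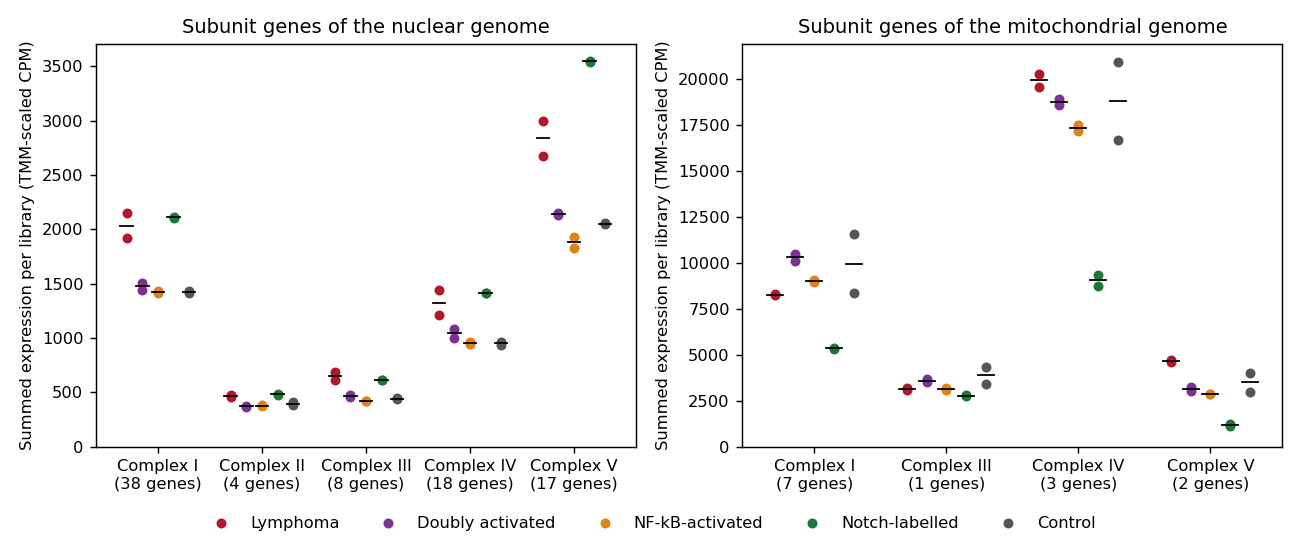
Summed CPM by complex in each library, nuclear genes in one panel and mitochondrial genes in the other, with groups by colour, a dot per library and a bar at the group mean. In CPM, nuclear sums of lymphoma and Notch-labelled libraries lie above their comparison groups in each complex. Mitochondrial sums of Notch-labelled libraries lie below those of control libraries. In deposited TPM, not drawn here, the nuclear complex II sums of lymphoma and doubly activated libraries overlapped.

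In the comparison of Notch-labelled with control libraries, 63 of the 88 nuclear members tested rose and 4 fell, and 12 of the 13 mitochondrial members fell and none rose. A gene was called with an adjusted p below 0.05 in edgeR's quasi-likelihood test, with Benjamini-Hochberg adjustment over the 15583 genes tested. By the same rule 34.2% of all genes tested rose and 29.5% fell, 63.7% in either direction, so a call as such was common in this comparison. The median log2 difference was 0.56 over the nuclear members and -1.07 over the mitochondrial members, against 0.07 over all genes tested. None of the mitochondrial members rose at an unadjusted p below 0.05 either, and DESeq2 called 13 lower and none higher. With library size alone as the scaling, the all-gene median moved to 0.18, and those of the nuclear and mitochondrial members to 0.67 and -0.96. Of the 63 nuclear rises 50 held in each of the 19 alternative fits, and of the 4 nuclear falls 1 did, that of Cox7a2l.

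Complex I takes electrons from NADH, and 30 of its 37 nuclear subunit genes tested rose and none fell. At an unadjusted p below 0.05 none of the nuclear subunits of complex I fell. Ndufa12, an accessory subunit, had 72.2 and 72.5 CPM in Notch-labelled against 27.1 and 26.4 CPM in control libraries, a log2 difference of 1.44 ± 0.09 (SE, edgeR adjusted p = 7.16e-08). Ndufc2 had 70.3 and 70.4 CPM against 30.8 and 31.4 CPM in control libraries (log2 1.18 ± 0.12). Ndufb6 had 37.7 and 40.1 CPM against 18.4 and 16.8 CPM in control libraries (log2 1.15 ± 0.12). The groups did not overlap in any of these accessory subunits. Members of complex I that were not called included Ndufs1, the large iron-sulfur core subunit, with 70.1 and 73.9 CPM against 84.0 and 71.4 CPM in control libraries, where the groups overlapped. Assembly factors, which build complex I without staying in it, did not move as a set. Of the 8 tested, 3 rose and 2 fell. Ndufaf2 had 13.04 and 12.2 CPM against 5.84 and 6.69 CPM in control libraries (log2 1.01 ± 0.20), and Ndufaf4, the most abundant, had 17.0 and 17.4 CPM against 24.2 and 25.8 CPM (log2 -0.54 ± 0.12, adjusted p = 0.00232). With an offset for effective transcript length, Ndufaf4 stood at 0.08 (adjusted p = 0.714).

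Complex II is the succinate dehydrogenase of the citric acid cycle and has no mitochondrially encoded subunit. The membrane anchor Sdhd rose to 77.0 and 79.4 CPM in Notch-labelled libraries, against 37.3 and 40.1 CPM in control libraries (log2 1.01 ± 0.09, adjusted p = 6.26e-07). The iron-sulfur subunit Sdhb had 92.3 and 86.4 CPM against 60.8 and 60.6 CPM in control libraries (log2 0.56 ± 0.09). The other anchor, Sdhc, passed the threshold narrowly at log2 0.27 ± 0.11 (adjusted p = 0.0442), a call that was lost in some alternatives. The flavoprotein Sdha, the most abundant of the 4, had 274 and 267 CPM against 253 and 270 CPM in control libraries, and the groups overlapped. With the length offset Sdha was called higher (log2 0.24, adjusted p = 0.0347), and in deposited TPM the groups did not overlap, at 331 and 353 TPM in Notch-labelled against 262 and 274 TPM in control libraries. In CPM the log2 differences of the 4 subunits thus ran between 0.05 and 1.01.

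Complex III had 5 of 8 nuclear genes called higher and none lower, with none lower at an unadjusted p below 0.05. The small subunits Uqcr11 and Uqcr10 had the largest differences. Uqcr11 had 59.0 and 58.8 CPM in Notch-labelled against 18.4 and 22.5 CPM in control libraries (log2 1.52 ± 0.15, adjusted p = 1.74e-06), and Uqcr10 had 59.97 and 66.2 CPM against 27.9 and 28.7 CPM (log2 1.15 ± 0.11). The core protein Uqcrc1, the most abundant nuclear member of the complex, had 158 and 151 CPM against 97.8 and 113 CPM (log2 0.55 ± 0.09, adjusted p = 1.91e-04), a call that was lost with the length offset (0.26, adjusted p = 0.0843).

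Complex IV had 8 of 14 nuclear genes tested called higher and 1 lower. Cox6a1 had 207 and 204 CPM in Notch-labelled against 91.4 and 96.6 CPM in control libraries (log2 1.13 ± 0.11, adjusted p = 2.43e-06). Cox4i1, the most abundant, had 302 and 293 CPM against 151 and 181 CPM (log2 0.84 ± 0.11). Cox7a2l, a Cox7a relative, was the gene that fell, to 122 and 125 CPM in Notch-labelled libraries, against 193 and 185 CPM in control libraries (log2 -0.62 ± 0.08, adjusted p = 2.77e-05).

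Complex V had 14 of 16 nuclear genes tested called higher and none lower, with none lower at an unadjusted p below 0.05. Its summed level was 3545 and 3541 CPM in Notch-labelled against 2054 and 2048 CPM in control libraries, a ratio of 1.73, against 1.21 for complex II and 1.39 to 1.49 for the nuclear genes of complexes I, III and IV. The catalytic beta subunit Atp5b, the most abundant nuclear member of all, had 1054 and 1056 CPM against 522 and 528 CPM in control libraries (log2 1.01 ± 0.08, adjusted p = 3.01e-07). Atp5j2 and Atp5k, small membrane subunits, had log2 differences of 1.24 ± 0.12 and 1.08 ± 0.12. The genes not called were Atp5l, subunit g, with 52.8 and 53.9 CPM against 56.8 and 56.1 CPM, and Atp5mpl, a small proteolipid, with 21.6 and 25.5 CPM against 31.6 and 22.6 CPM. The factor Atp5s was low and fell, with 2.15 and 2.27 CPM against 4.92 and 3.86 CPM in control libraries (log2 -0.99 ± 0.29, adjusted p = 0.00990). Beside these differences, 6 of 8 B cell markers fell and 2 rose and 4 of 4 stroma markers rose in the same comparison. Of the T cell markers 4 of 8 rose and 1 fell, and their sum was 351 and 351 CPM in Notch-labelled against 75.6 and 87.7 CPM in control libraries. Most of this sum was Thy1, at 257 and 248 CPM in Notch-labelled against 6.89 and 7.83 CPM in control libraries, while Cd3e had 6.45 and 5.09 CPM against 1.72 and 3.59 CPM. In addition 3 of 8 neutrophil, 3 of 5 erythroid and 2 of 5 NK cell markers tested rose, 4 of 9 macrophage markers fell, and 3 plasma cell markers rose and 1 fell of 5 tested. The part of these markers in the result was not tested.

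**Figure D2:**
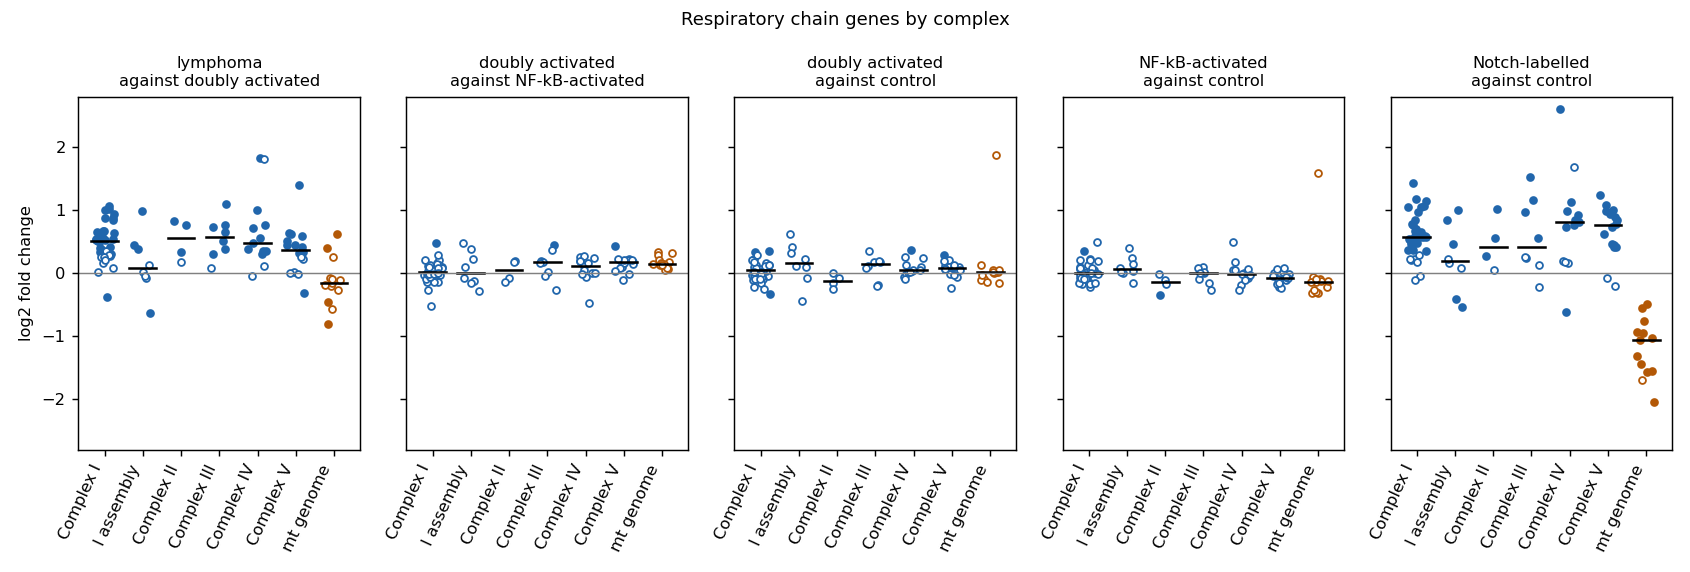
Log2 difference of the tested members in the 5 comparisons, by complex and genome, with filled points for an edgeR adjusted p below 0.05 and a black bar at the median. Cox6a2 is left out because its doubly activated libraries had no counts, and the ATP synthase factor Atp5s is not drawn. The nuclear medians over all complexes are 0.44 in lymphoma against doubly activated and 0.56 in Notch-labelled against control libraries and lie within 0.08 of 0 in the other comparisons.

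The mitochondrially encoded messages fell in Notch-labelled libraries by unequal amounts. The ATP synthase subunit mt-Atp6 had 1026 and 1091 CPM in Notch-labelled against 3609 and 2671 CPM in control libraries (log2 -1.57 ± 0.12, adjusted p = 3.02e-07), and its neighbour mt-Atp8 had 123 and 122 CPM against 416 and 302 CPM (log2 -1.55 ± 0.12). The complex IV subunit mt-Co3 had 1149 and 1189 CPM against 3698 and 2650 CPM in control libraries (log2 -1.44 ± 0.13). At the other end, cytochrome b (mt-Cytb) had 2742 and 2801 CPM against 4356 and 3390 CPM (log2 -0.48 ± 0.10, adjusted p = 0.00145), and mt-Nd1 had 1620 and 1638 CPM against 2793 and 1976 CPM (log2 -0.55 ± 0.13). Both Notch-labelled libraries lay below both control libraries for all of these genes. Between these, mt-Co1, the catalytic core of complex IV and the most abundant member in these libraries, had 6914 and 6968 CPM against 12870 and 10582 CPM (log2 -0.76 ± 0.09). The complex I messages mt-Nd2, mt-Nd6, mt-Nd4, mt-Nd5 and mt-Nd4l had log2 differences of -0.94, -0.94, -1.02, -1.07 and -1.32. The reading frames of mt-Atp8 and mt-Atp6, and of mt-Nd4l and mt-Nd4, overlap in the mitochondrial genome, so reads there cannot be told apart. The 12 calls also held in each of the 19 alternative fits, those that leave out 1 library included.

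**Figure D3:**
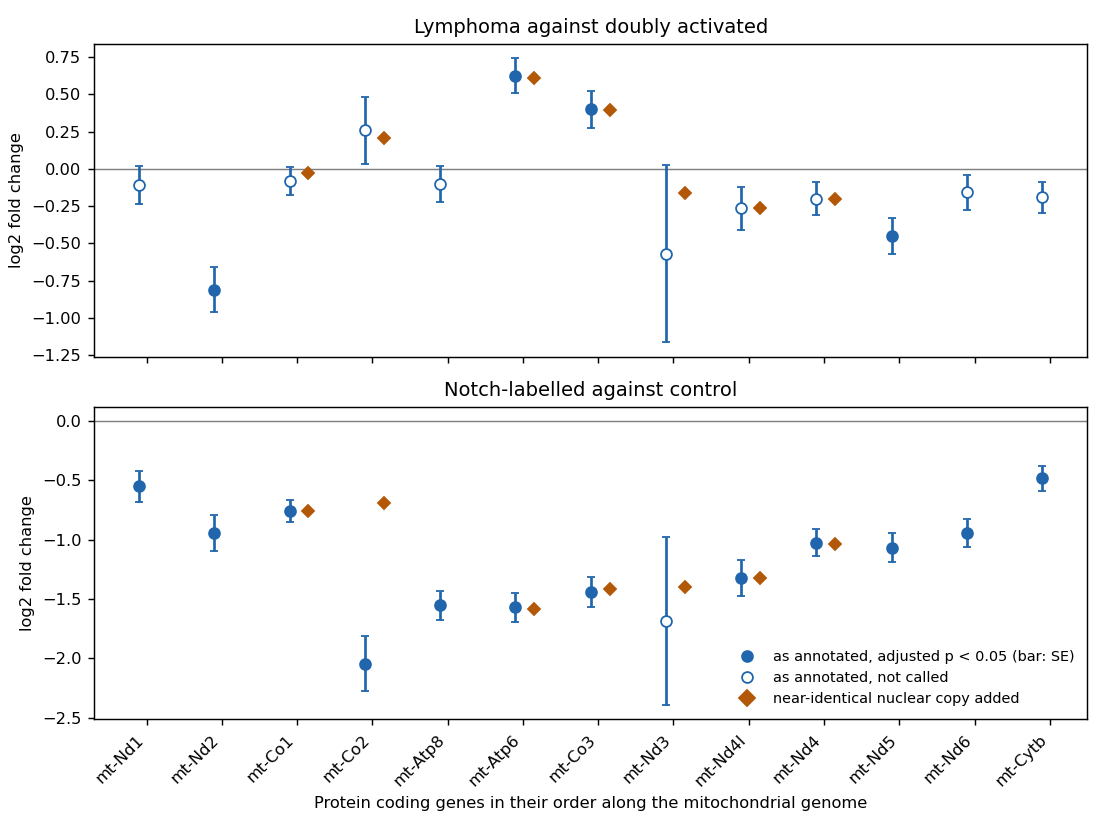
Log2 difference with its SE for the 13 mitochondrial genes in genome order, for lymphoma against doubly activated and Notch-labelled against control libraries; filled points had an edgeR adjusted p below 0.05 and diamonds have the counts of near-identical nuclear copies added. In Notch-labelled libraries the points run from -0.48 for mt-Cytb to -2.04 for mt-Co2, and the diamond of mt-Co2 lies at -0.69.

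The level of mt-Co2 depended on a nuclear copy of mitochondrial DNA. Pieces of the mitochondrial genome lie as pseudogene copies in the nuclear genome, and 7 of the 13 mitochondrial members have 1 that aligned at 99% identity or more on chromosome 1 (GRCm38, chr1:24611535-24616197, minus strand). All 681 bases of the copy Gm28661 are identical to mt-Co2, so that only reads over the end of mt-Co2 can tell them apart. The copy of mt-Nd3, Gm28438, differs in 1 of 345 bases, and that of mt-Co1, Gm29216, in 6 of 492. The stretches that hold differences are shown from the GENCODE M21 transcripts, since these decide how counts are split; capitals mark the bases that differ, or that the copy lacks.
mt-Co2, transcript bases 637 to 684: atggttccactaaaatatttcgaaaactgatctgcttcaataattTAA
Gm28661, bases 637 to 681: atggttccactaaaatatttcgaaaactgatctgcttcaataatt
mt-Nd3, bases 1 to 37: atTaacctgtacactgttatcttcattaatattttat
Gm28438, bases 1 to 37: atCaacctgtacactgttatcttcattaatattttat
mt-Co1, bases 1054 to 1100: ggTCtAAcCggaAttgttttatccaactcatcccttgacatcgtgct
Gm29216, bases 1 to 47: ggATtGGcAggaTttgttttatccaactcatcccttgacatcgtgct

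As annotated, mt-Co2 had 696 and 1182 CPM in Notch-labelled against 4335 and 3415 CPM in control libraries (log2 -2.04 ± 0.23, adjusted p = 1.15e-04). Its copy Gm28661 had 1779 and 1350 CPM in Notch-labelled against 248 and 84.4 CPM in control libraries, so the split between the identical sequences differed between the groups. With the copy added, mt-Co2 had 2475 and 2532 CPM against 4583 and 3500 CPM, and its log2 difference was -0.69 (adjusted p = 1.40e-04). mt-Nd3 had 13.1 and 5.09 CPM against 44.5 and 14.6 CPM as annotated and was not called (log2 -1.69 ± 0.71, adjusted p = 0.0869). With Gm28438 added it had 99.9 and 117 CPM against 349 and 221 CPM and was called lower (log2 -1.40, adjusted p = 2.27e-04), so that 13 of 13 mitochondrial genes were lower. Gm29216, the copy of part of mt-Co1, had 490 and 336 CPM in lymphoma, none in Notch-labelled libraries and 1.63 to 4.97 CPM in the other 6. Adding it moved mt-Co1 in lymphoma against doubly activated libraries from -0.08 to -0.03, with no call in either case. For mt-Atp6, mt-Co3, mt-Nd4 and mt-Nd4l, the copies held 105 CPM or less in each library and changed no call in the Notch-labelled or lymphoma comparison.

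**Figure D4:**
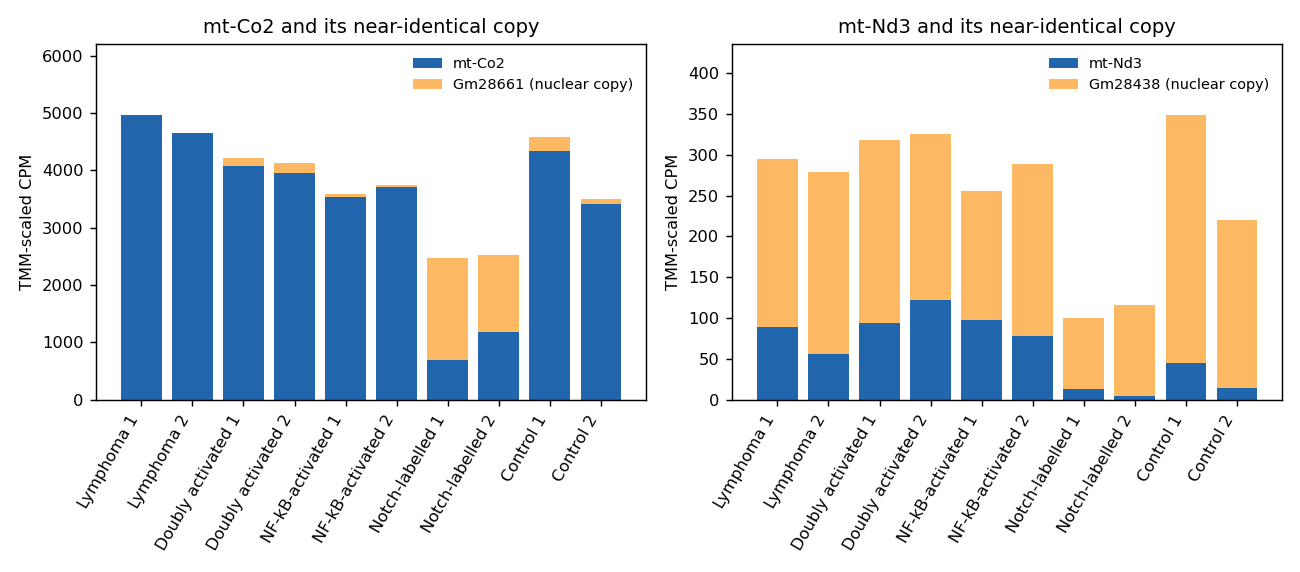
Stacked bars of CPM by library for mt-Co2 with its nuclear copy Gm28661 and for mt-Nd3 with its nuclear copy Gm28438. The copy holds 1779 and 1350 CPM of the mt-Co2 pair in the Notch-labelled libraries, and Gm28438 holds more than mt-Nd3 in each library.

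In the comparison of lymphoma with doubly activated cells of the same genotype, 62 of the 88 nuclear members tested rose and 3 fell. Among all genes tested, 26.1% rose and 25.2% fell, 51.3% in either direction. The median log2 difference of the nuclear members was 0.44, against 0.01 over all genes. Of the 13 mitochondrial members, 2 rose and 2 fell. The count of members called was 69, and it was 49 without lymphoma library 1. Of the 62 nuclear rises 42 held in each alternative fit, and none of the 3 nuclear falls did (Ndufs7, Ndufaf5 and Atp5g2). The summed nuclear level was 1.33 times that of doubly activated libraries in CPM (log2 0.41) and 1.16 times in deposited TPM (log2 0.22). The TPM value lies under the log2 ratio of 0.25 from which a sum was given a direction. By complex, the TPM sums of complex II overlapped, at 403 and 419 in lymphoma against 455 and 401 in doubly activated libraries. Complex IV had 3301 and 3032 TPM against 2819 and 2881 TPM, and complex V 4313.5 and 4100.5 TPM against 3822 and 3815 TPM. The lymphoma libraries differed from each other more than did the doubly activated libraries, and in CPM library 1 had the higher sum in each of the 5 complexes.

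In complex I, 28 of 37 nuclear subunit genes rose in lymphoma and 1 fell. Ndufb6 had 32.7 and 29.2 CPM in lymphoma against 14.5 and 15.05 CPM in doubly activated libraries (log2 1.07 ± 0.12, edgeR adjusted p = 1.03e-05). Ndufc2 had 68.1 and 59.96 CPM against 27.6 and 35.9 CPM (log2 1.02 ± 0.12), and Ndufa1 had 49.3 and 46.5 CPM against 22.996 and 24.8 CPM (log2 1.005 ± 0.11). Ndufb9 followed with 58.7 and 48.9 CPM against 29.1 and 27.3 CPM (log2 0.93 ± 0.11). These are accessory subunits of the membrane arm, and their groups did not overlap. Ndufs7, a core subunit that carries an iron-sulfur cluster, was the subunit that fell, to 37.1 and 33.2 CPM in lymphoma, against 46.3 and 45.1 CPM in doubly activated libraries (log2 -0.38 ± 0.13, adjusted p = 0.0270). Of the 8 assembly factors, 3 rose and 1 fell. Ndufaf2 had 9.71 and 8.503 CPM against 4.68 and 4.51 CPM (log2 0.99 ± 0.20), and Ndufaf5 was called lower at 9.53 and 8.06 CPM, against 10.2 and 17.2 CPM in doubly activated libraries that lay far apart.

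In complex II both membrane anchors led in lymphoma. Sdhd had 71.2 and 66.2 CPM in lymphoma against 38.9 and 38.9 CPM in doubly activated libraries (log2 0.82 ± 0.08, adjusted p = 6.01e-06), and Sdhc had 52.0 and 47.8 CPM against 28.5 and 30.1 CPM (log2 0.77 ± 0.11). Sdhb had 74.9 and 63.2 CPM against 55.8 and 53.3 CPM (log2 0.34 ± 0.09), a call that was not kept in every alternative fit. Sdha had 279 and 279 CPM against 250 and 245 CPM and was not called (log2 0.17 ± 0.07, adjusted p = 0.0525). In deposited TPM, Sdha was lower, with 180 and 195 TPM in lymphoma against 280 and 241 TPM in doubly activated libraries, and with the length offset its log2 difference was -0.29 (adjusted p = 0.0189). The direction for Sdha therefore depended on whether transcript length was taken into account.

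Complex III had 7 of 8 nuclear genes called higher in lymphoma. Uqcrq, which lies beside cytochrome b, had 94.0 and 81.5 CPM in lymphoma against 36.2 and 45.6 CPM in doubly activated libraries (log2 1.10 ± 0.12, adjusted p = 6.49e-06). The Rieske iron-sulfur protein Uqcrfs1 had 104 and 95.7 CPM against 54.6 and 65.7 CPM (log2 0.74 ± 0.11). Uqcrh, the hinge protein, was the exception, with 104 and 85.2 CPM against 87.5 and 90.9 CPM and groups that overlapped. Complex IV had 11 of 14 nuclear genes tested called higher and none lower, also at an unadjusted p below 0.05. These 11 include Cox6a2, which is also among the 62 nuclear rises and the 42 that held. Cox6a2 had 22 and 12 counts in lymphoma and 0 in both doubly activated libraries. It passed the filter on low counts only through its lymphoma counts, so its rise adds no support. Cox5b had 129 and 110 CPM against 58.2 and 60.7 CPM (log2 1.01 ± 0.09, adjusted p = 1.85e-06). A near-identical protein coding copy, Gm11273, had 0.879 and 0.733 CPM in lymphoma against 10.97 and 14.98 CPM in doubly activated libraries, and with it added the log2 difference of Cox5b was 0.73 (adjusted p = 2.69e-05). Cox4i1 had 251 and 210 CPM against 200 and 228 CPM and overlapped. In complex V, 10 of 16 nuclear genes rose and 1 fell. Atp5b had 784 and 702 CPM against 555 and 537 CPM (log2 0.44 ± 0.08, adjusted p = 4.24e-04). Atp5d, Atp5e and Atp5l, the delta, epsilon and g subunits, had log2 differences within 0.02 of 0 with overlapping groups.

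The mitochondrial messages of lymphoma differed by gene and not as a set. mt-Atp6 rose to 4413 and 4268 CPM in lymphoma, against 2909 and 2717 CPM in doubly activated libraries (log2 0.63 ± 0.12, adjusted p = 7.64e-04), and mt-Co3 to 4334 and 4167 CPM, against 3318 and 3128 CPM (log2 0.40 ± 0.13, adjusted p = 0.0198). mt-Nd2 fell to 835 and 815 CPM, against 1451 and 1442 CPM (log2 -0.81 ± 0.15, adjusted p = 0.00118), and mt-Nd5 to 1973 and 2133 CPM, against 2947 and 2669 CPM (log2 -0.45 ± 0.12, adjusted p = 0.00836). The 2 messages that rose lie next to each other in the mitochondrial genome, and the 2 that fell are both subunits of complex I. The summed mitochondrial messages of complex I were 8255 and 8287 CPM in lymphoma against 10486 and 10109 CPM in doubly activated libraries, and those of complex V 4709 and 4581 CPM against 3249 and 3029 CPM. In deposited TPM the complex I sum was also lower in lymphoma, at 11894 and 12869 TPM against 17578 and 16384 TPM. The complex V sum was 20423 and 22613 TPM in lymphoma against 22514 and 19885 TPM in doubly activated libraries, so on that scale the groups overlapped. Of the 2 genes in this sum only mt-Atp6 was called, and mt-Atp8 did not rise. In TPM mt-Atp6 had 9492.5 and 9999.2 in lymphoma against 7483.3 and 6681.4 in doubly activated libraries. On the same scale mt-Atp8 had 10931 and 12613 against 15031 and 13203. The calls of mt-Atp6 and mt-Nd2 held in each alternative fit. That of mt-Co3 was lost without any 1 of the 4 libraries compared (adjusted p between 0.0571 and 0.117), and that of mt-Nd5 without lymphoma library 1 (0.0713) or doubly activated library 1 (0.0647). In the same comparison 7 of 8 B cell markers fell and 4 of 5 plasma cell markers tested rose, with a summed level of 1940 and 2083 CPM in lymphoma against 587 and 723 CPM in doubly activated libraries. Most of the lymphoma sum was Irf4, at 1068 and 1199 CPM, and Xbp1, at 669 and 663 CPM. Jchain did not rise, with 46.9 and 44.9 CPM in lymphoma against 66.2 and 65.5 CPM in doubly activated libraries. Of the 8 T cell markers 1 rose and 3 fell. Thy1 was the 1 that rose, at 879 and 830 CPM in lymphoma against 3.84 and 1.24 CPM in doubly activated libraries. Lck and Cd3d were among those that fell (log2 -1.32 and -1.66), and Cd3e stood at 0.929 CPM or less in lymphoma. In addition 2 of 9 macrophage and 1 of 5 erythroid markers tested rose. Of the NK cell markers 2 of 5 tested fell, and of 4 stroma markers 1 rose and 1 fell. The part of these markers in the result was not tested.

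In the pre-malignant marginal zone precursor groups few members were called. With NF-kB activation alone, 1 member rose and 1 fell of 101, where 8.72% of all genes tested rose and 6.6% fell, 15.3% in either direction. Ndufv3, an accessory subunit beside the NADH site, had 38.0 and 34.6 CPM in NF-kB-activated against 28.8 and 27.9 CPM in control libraries (log2 0.36 ± 0.11, edgeR adjusted p = 0.0488). Sdhb had 47.3 and 48.0 CPM against 60.8 and 60.6 CPM (log2 -0.35 ± 0.09, adjusted p = 0.0239). None of the 13 mitochondrial genes was called by edgeR, 2 were lower at an unadjusted p below 0.05, and DESeq2 called 2 lower. This count rested on the control libraries. Without control library 2, which had the lower mitochondrial sum, 8 mitochondrial messages were called lower in NF-kB-activated cells (mt-Atp6, mt-Atp8, mt-Co3, mt-Cytb, mt-Nd1, mt-Nd2, mt-Nd4 and mt-Nd4l) and no other member was called. Without control library 1 or either NF-kB-activated library no member was called, without either doubly activated or either Notch-labelled library 1 member was called, and without either lymphoma library there were 4 calls. In the same comparison 4 of 8 neutrophil markers rose, with a summed level of 416 and 121 CPM in NF-kB-activated against 0.307 and 16.5 CPM in control libraries. The 9 macrophage markers summed to 205 and 147 CPM in NF-kB-activated against 49.8 and 204 CPM in control libraries. The part of these markers in the result was not tested.

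In doubly activated against control libraries, 4 members rose and 1 fell of 101, where 10.5% of all genes tested rose and 9.3% fell, 19.8% in either direction. Of the calls over all genes 53.1% were rises, and 41.7% with library size alone as the scaling, under which the members had 2 calls, both lower. Cox4i1 had 200 and 228 CPM in doubly activated against 151 and 181 CPM in control libraries (log2 0.36 ± 0.11, edgeR adjusted p = 0.0314). Ndufv3 had 34.2 and 38.4 CPM against 28.8 and 27.9 CPM (log2 0.36 ± 0.11). Ndufa10, an accessory subunit of the membrane arm, had 63.4 and 67.8 CPM against 55.5 and 48.4 CPM (log2 0.34 ± 0.09), and Atp5l had 66.4 and 71.4 CPM against 56.8 and 56.1 CPM (log2 0.29 ± 0.09). The groups did not overlap in any of these genes. Ndufab1, the mitochondrial acyl carrier protein, had 33.2 and 27.7 CPM against 38.9 and 38.1 CPM (log2 -0.34 ± 0.11, adjusted p = 0.0420), a call that was lost with its near-identical copies added (log2 -0.22, adjusted p = 0.137). Each of the 5 calls was lost in at least 1 alternative. Without doubly activated library 2 no member was called, and without either NF-kB-activated or either Notch-labelled library 1 member was called. Without control library 1 there were 7 calls, and 4 of these were mitochondrial genes called higher in doubly activated cells, mt-Nd1 (log2 0.40), mt-Nd2 (0.34), mt-Nd3 (2.88) and mt-Nd4l (0.33). Without control library 2 there were 4 calls, and 3 of these were mitochondrial genes called lower, mt-Atp6 (log2 -0.36), mt-Atp8 (-0.35) and mt-Cytb (-0.28). Of the 13 mitochondrial genes, 13 lay above 0 without control library 1, with a median of log2 0.24, and 1 lay above 0 without control library 2, with a median of log2 -0.20. With all libraries and its copy Gm28438 added, mt-Nd3 stood at log2 0.18 (adjusted p = 0.578). Of the mitochondrial genes edgeR called none with all libraries, 1 was higher at an unadjusted p below 0.05 and none with the copies added, and DESeq2 called 1 higher. Of the cell type markers, 4 of 8 T cell and 3 of 9 macrophage markers fell, and the macrophage sum was 47.5 and 24.0 CPM in doubly activated against 49.8 and 204 CPM in control libraries. In the same comparison 2 plasma cell markers rose and 1 fell of 5 tested, and 1 B cell marker rose and 2 fell of 8. Their part in the result was not tested.

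With the Notch2 allele added to the NIK allele per the labels, 3 members rose and none fell of 101 in doubly activated against NF-kB-activated libraries. Of all genes tested 6.62% rose and 7.28% fell, 13.9% in either direction. The Notch2 count did not bear this label out. Of the calls over all genes 47.6% were rises, and 34% with library size alone as the scaling. Ndufa10 had 63.4 and 67.8 CPM in doubly activated against 49.0 and 45.3 CPM in NF-kB-activated libraries (log2 0.48 ± 0.09, edgeR adjusted p = 0.00518). Uqcrfs1 had 54.6 and 65.7 CPM against 44.7 and 43.6 CPM (log2 0.44 ± 0.11, adjusted p = 0.0196), and Atp5g2 had 141 and 147 CPM against 116 and 97.0 CPM (log2 0.44 ± 0.10, adjusted p = 0.0137). The groups did not overlap in these 3 genes. The 13 mitochondrial genes had log2 differences above 0, with a median of 0.15, and none was called; with library size alone 11 of the 13 were above 0. At an unadjusted p below 0.05, 1 mitochondrial gene was higher, and 16 nuclear members were higher and 2 lower. DESeq2 called 1 mitochondrial gene and 5 nuclear members higher and no member lower. Without doubly activated library 2 or NF-kB-activated library 2 no member was called, without NF-kB-activated library 1 there were 2, without control library 2 there were 5, and without doubly activated library 1 or control library 1 there were 6. Of the 8 neutrophil markers 7 fell in the same comparison, and their part in the result was not tested. In deposited TPM the summed mitochondrial level differed by log2 0.02 and the groups overlapped, against log2 0.15 in CPM. These comparisons share libraries, so their values are not independent of one another.

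Several nuclear subunits exist as isoforms from separate genes, of which 1 is usual in most tissues and others in muscle, lung or testis. Levels between genes are given in the deposited TPM, which is per transcript length. Cox4i1 had 484 and 442 TPM in lymphoma, 478 and 508 TPM in doubly activated, 468 and 468 TPM in NF-kB-activated, 769 and 756 TPM in Notch-labelled and 371 and 450 TPM in control libraries. Its lung isoform Cox4i2 had 7 counts in Notch-labelled libraries and none elsewhere. The common forms Cox6a1, Cox6b1, Cox7a2 and Cox8a were likewise far above their tissue-restricted relatives in each library. Cox6a1 lay between 294 and 746 TPM, and its heart and muscle relative Cox6a2 between 0 and 2.29 TPM. Cox6a2 had 34 counts over the lymphoma libraries and none over the doubly activated libraries. With 3 counts set for the doubly activated group the ratio in CPM was 8.95, with no allowance for spread in the lymphoma counts. The gene passed the filter on low counts only through lymphoma, so this ratio adds no support. Cox6b2, the testis form, had 1.249 and 1.95 CPM in lymphoma against 0.557 and 0.327 CPM in doubly activated libraries (log2 1.83 ± 0.64, edgeR adjusted p = 0.0310), and 1.95 and 3.36 CPM in Notch-labelled against 0.307 and 0.544 CPM in control libraries (log2 2.61 ± 0.64, adjusted p = 0.00323). The lymphoma call of Cox6b2 rested on 10 and 5 counts in doubly activated libraries and was not kept in every alternative fit. Cox6b1, its common relative, lay between 247 and 563 TPM, far above Cox6b2 in each library. Cox7a1, the heart and muscle form, lay between 0.437 and 7.67 TPM and was called in no comparison. Cox8b had 1 count in all, Cox7b2 and Cox8c had none, which allows up to 3 counts over a group, and Ndufa4l2 had 5. The ubiquitous Ndufa4, named for complex I and since assigned to complex IV, had 71.7 and 67.0 CPM in lymphoma against 48.8 and 45.7 CPM in doubly activated libraries (log2 0.56 ± 0.09), and 76.0 and 79.6 CPM in Notch-labelled against 43.4 and 47.9 CPM in control libraries (log2 0.77 ± 0.09). Cox7b, the relative of Cox7b2, rose in both of these comparisons (log2 0.56 and 0.82). Cox6c rose in lymphoma (log2 0.30), a call that was not kept in every alternative fit, and had log2 0.19 (adjusted p = 0.107) in Notch-labelled libraries.

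Subunit c of the ATP synthase, which forms the rotating ring, is encoded by Atp5g1, Atp5g2 and Atp5g3, whose mature proteins are identical and whose import sequences differ. The 3 genes did not move together in lymphoma. Among nuclear members of at least 5 CPM, Atp5g1 had the largest rise there, with 114 and 98.9 CPM in lymphoma, 40.1 and 40.7 CPM in doubly activated, 36.6 and 35.4 CPM in NF-kB-activated, 79.0 and 76.0 CPM in Notch-labelled and 39.9 and 41.3 CPM in control libraries. The log2 difference was 1.397 ± 0.09 in lymphoma against doubly activated libraries (edgeR adjusted p = 7.78e-08) and 0.93 ± 0.09 in Notch-labelled against control libraries. In TPM, Atp5g1 was the lowest of the 3 genes in doubly activated libraries, at 96.7 and 90.4 against 332 and 329 for Atp5g2 and 244 and 236 for Atp5g3. In lymphoma Atp5g1 had 264 and 248 TPM, Atp5g2 245 and 226 TPM and Atp5g3 288 and 287 TPM. The TPM of Atp5g2 leave out its near-identical copy Gm10175, which also had counts in lymphoma, so the order of the 3 genes there is uncertain. Atp5g3 rose in lymphoma (log2 0.41) and in Notch-labelled libraries (log2 0.89). Atp5g2 was called lower in lymphoma as annotated, with 125 and 106 CPM against 141 and 147 CPM in doubly activated libraries (log2 -0.32 ± 0.10, adjusted p = 0.0187). Gm10175 had 96.4 and 79.7 CPM in lymphoma against 27.1 and 33.1 CPM in doubly activated libraries and none in Notch-labelled libraries. With that copy added the direction of Atp5g2 in lymphoma turned, to 221 and 186 CPM against 169 and 180 CPM (log2 0.23, adjusted p = 0.0626), and its rise in doubly activated against NF-kB-activated libraries was log2 0.35 (adjusted p = 0.0284).

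**Figure D5:**
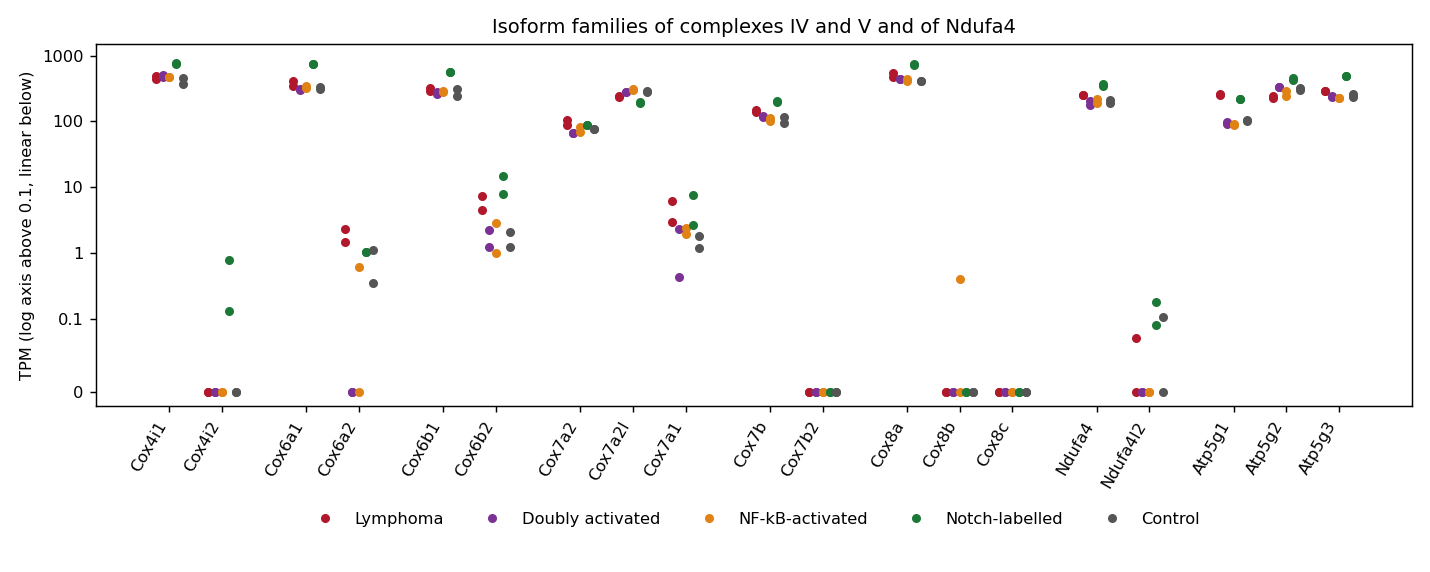
TPM of the isoform families by library, on an axis that is linear near 0 and logarithmic above, with a point per library and groups by colour. Common forms such as Cox4i1 (371 to 769 TPM) lie far above tissue-restricted forms such as Cox4i2 (0 to 0.766 TPM), and Atp5g1 lies higher in the lymphoma and Notch-labelled libraries than in the other 6.

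Nuclear respiratory genes share promoter elements, among them the palindrome bound by NRF1 and sites of the ETS family, to which GABP belongs. RefSeq promoter windows of 300 bases around the start site (GRCm38.p6) were found for 76 of the 94 nuclear members. The NRF1 palindrome, the letters GCGCA, any base and then GCGC, searched on both strands, was present in 19 of the 76 members (25%), against 1402 of 27025 genes (5.19%). The ETS motif CCGGAAG, also on both strands, was in 18 members (23.7%), against 2683 genes (9.93%), and 4 members held both. The 27025 genes are all those with a window, whether or not they were expressed here. Neither expression nor base composition was matched, so the gap cannot be read as particular to respiratory genes. Neither motif contains the other, and a match describes letters and not binding. Of the members called higher, the largest difference with an NRF1 match was that of Cox6a1 in Notch-labelled libraries and of Ndufs5 in lymphoma. Ndufs5, a complex I accessory subunit, had 37.0 and 32.0 CPM in lymphoma against 17.3 and 20.5 CPM in doubly activated libraries (log2 0.87 ± 0.13, adjusted p = 1.47e-04). Their windows are shown on the gene's strand, with the NRF1 matches in capitals, 2 in Cox6a1 and 1 in Ndufs5.
Cox6a1, chr5:115348909-115349208, minus strand: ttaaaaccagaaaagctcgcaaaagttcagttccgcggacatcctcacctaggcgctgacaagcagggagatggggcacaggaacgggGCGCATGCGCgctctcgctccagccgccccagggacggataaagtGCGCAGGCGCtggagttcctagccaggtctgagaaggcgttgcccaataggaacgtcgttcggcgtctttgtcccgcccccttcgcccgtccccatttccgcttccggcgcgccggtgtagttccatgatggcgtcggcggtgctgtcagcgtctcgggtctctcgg
Ndufs5, chr4:123718137-123718436, minus strand: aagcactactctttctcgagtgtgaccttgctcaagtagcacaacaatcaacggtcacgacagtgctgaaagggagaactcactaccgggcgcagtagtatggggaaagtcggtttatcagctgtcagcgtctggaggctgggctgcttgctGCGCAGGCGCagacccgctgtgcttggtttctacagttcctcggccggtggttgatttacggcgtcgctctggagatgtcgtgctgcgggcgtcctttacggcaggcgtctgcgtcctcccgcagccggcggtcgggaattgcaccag

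Other mitochondrial gene lists were read for the same comparisons. Over all genes tested, 34.2% rose and 29.5% fell in Notch-labelled against control libraries. In lymphoma against doubly activated libraries 26.1% rose and 25.2% fell. Of 78 mitochondrial ribosomal protein genes, which make the machine that translates the 13 mitochondrial messages, 57 rose and 1 fell in Notch-labelled against control libraries (median log2 0.48), and 42 rose and none fell in lymphoma against doubly activated libraries (median 0.37). Mrpl34 averaged 39.1 ± 2.0 CPM in Notch-labelled and 13.9 ± 1.2 CPM in control libraries (SD, n = 2 each, log2 1.49), and Mrpl13 averaged 55.9 ± 3.5 CPM in lymphoma and 29.3 ± 1.5 CPM in doubly activated libraries (log2 0.93). These nuclear genes thus moved the same way as most nuclear members in both comparisons. Of 13 citric acid cycle genes, 7 rose and none fell in Notch-labelled libraries, with Mdh2 and Idh3a at log2 1.17 and 1.16, and 7 rose and 2 fell in lymphoma, with Mdh2, Suclg1 and Cs at 0.58, 0.50 and 0.44. Of 13 genes of the electron carriers ubiquinone and cytochrome c, 5 rose and 2 fell in each of these comparisons. The share that rose in Notch-labelled libraries is near that over all genes. Medians of this list were log2 0.09 in Notch-labelled libraries and 0.13 in lymphoma, against 0.07 and 0.01 over all genes. Cytochrome c (Cycs) rose in both (log2 0.997 and 0.78), and the ubiquinone synthesis kinase-like gene Coq8a fell in both (log2 -1.85 and -1.13).

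Of 16 genes tested that act on mitochondrial DNA and its transcripts, 5 rose and 5 fell in Notch-labelled libraries and 6 rose and 4 fell in lymphoma. Over all genes 34.2% rose and 29.5% fell in Notch-labelled libraries and 26.1% rose and 25.2% fell in lymphoma, so most of these shares are near the background. Mterf3, a repressor of mitochondrial transcription, averaged 16.3 ± 0.1 CPM in Notch-labelled and 48.3 ± 7.7 CPM in control libraries (SD, n = 2 each, log2 -1.56), and Polg2, the accessory subunit of the mitochondrial DNA polymerase, had log2 -1.06. In lymphoma, Lrpprc, which stabilises mitochondrial messages, fell (log2 -0.42), and its partner Slirp rose (log2 0.72). Of 38 assembly factors outside the symbol rule, 10 rose and 6 fell in Notch-labelled libraries, and 13 rose and 3 fell in lymphoma, with medians of log2 0.13 and 0.21 against 0.07 and 0.01 over all genes. Atpif1, the inhibitor of the ATP synthase, averaged 91.4 ± 0.9 CPM in Notch-labelled and 22.7 ± 0.2 CPM in control libraries (log2 2.01), a larger difference than that of any nuclear member above 5 CPM. Ttc19, a complex III assembly factor, rose in lymphoma (log2 1.39), and Sdhaf2, which attaches the flavin to Sdha, fell in both comparisons (log2 -0.75 in Notch-labelled and -0.97 in lymphoma). Of 10 nuclear regulators of respiratory genes, 1 rose and 7 fell in lymphoma against doubly activated libraries (median log2 -0.43), with the coactivator Ppargc1b at -1.10, the receptor Esrra at -0.57 and the GABP subunit Gabpb2 at -0.44. In Notch-labelled against control libraries 1 of the 10 rose, the coactivator Pprc1 (log2 0.45), and Gabpb2 and Ppargc1a fell (log2 -0.99 and -1.36). Myc averaged 622 ± 178 CPM in doubly activated, 114 ± 24 CPM in NF-kB-activated and 186 ± 85 CPM in control libraries (SD, n = 2 each), and was called higher in doubly activated libraries against both (log2 2.45 and 1.75).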

How the data were processed

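Per the submitters' processing notes, reads were quantified with kallisto 0.44.0 on mouse build mm10. Which transcript release was used is not stated in the labels or headers. The authors deposited, for each of 10 libraries, the estimated counts of each transcript, not normalized per the file headers, and TPM computed from these counts and effective lengths. Of 88198 transcripts listed, 86031 matched GENCODE M21 (GRCm38) and were summed to genes; the 2167 unmatched held 1.09% to 1.38% of a library's counts and were left out. Expected counts were rounded to whole numbers. The quasi-likelihood test of edgeR 4.0.16 (R 4.3.3, limma 3.58.1, TMM scaling, robust fit, two-sided) was fitted to all 10 libraries at once (5 groups, leaving 5 residual degrees of freedom), after a filter on low counts (minimum count 10, minimum total 15) that left 15583 genes. CPM are TMM-scaled. Sums were given a direction where the libraries did not overlap and the log2 ratio was at least 0.25. Counts of replicates differed by more than sampling noise in each group. Copies had at least 99% identity over at least 90% of their length, and whether the counting can tell them from their genes was not tested; adding them was chosen after seeing the data. Alternatives were RLE size factors, library size alone, no filter, DESeq2 1.42.0, only the groups compared, an effective length offset, a replicate block, antigen receptor segments and mitochondrial genes out of the library sizes, and each library left out. Named were the mitochondrial genes, complex II, the isoform families, up to 8 nuclear members per comparison with the largest called difference (at least 5 CPM, no overlap), the most abundant nuclear member of each complex, Map3k14 and Notch2, and up to 3 called genes per other list. Some genes that this rule names are not reported here. Other genes, such as those not called or with near-identical copies, were named after their values were seen. The members and lists were chosen with earlier results of these data known. Scripts were tested on simulated data.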

Additional observations from a re-analysis of the deposited data

How the results depend on the processing

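Of 91 calls of named genes, 65 were kept in each of 19 alternatives. Called lower in lymphoma, Atp5g2 stood at 0.23 (adjusted p = 0.0626) with copies added. With the length offset Ndufaf4 in Notch-labelled libraries stood at 0.077 (0.714), and Sdha in lymphoma at -0.29 (0.0189). The complex II sum in lymphoma stood at log2 -0.058 in TPM. Members called in NF-kB-activated against control libraries (2) were 4 with RLE, 5 with DESeq2, 1 with only the groups compared, 0 with the length offset and 0 to 8 without 1 library. In doubly activated against control libraries (5) they were 3 with RLE, 2 with library size alone, 3 with DESeq2, 0 with only the groups compared or the length offset, and 0 to 7 without 1 library. In doubly activated against NF-kB-activated libraries (3) they were 6 with DESeq2, 5 with only the groups compared, 1 with the length offset and 0 to 6 without 1 library. Members called numbered 72 to 79 in Notch-labelled and 49 to 75 in lymphoma libraries without 1 library. In doubly activated against control libraries, calls over all genes numbered 1984 with only the groups compared. In doubly activated against NF-kB-activated libraries they numbered 1394 with the length offset. Over all genes, leaving out 1 library gave 1435 to 2291 calls (NF-kB-activated), 8353 to 10014 (Notch-labelled), 1624 to 3081 (doubly activated against control), 725 to 2800 (against NF-kB-activated, the lowest without doubly activated library 2) and 6473 to 8410 (lymphoma). Replicate numbers did not pair the libraries: deviations from the group means correlated at -0.108 to 0.085 over 10386 genes. With a replicate block, members called numbered 1 in NF-kB-activated and 2 in doubly activated against control libraries, and the other 3 counts of members stayed within 1.5 times.

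Summed nuclear CPM moved as follows (log2). NF-kB-activated against control (-0.06) had -0.0016 in TPM and -0.069 with receptor segments and mitochondrial genes left out. Notch-labelled (0.63) had 0.74 with plain totals, 0.72 in TPM and 0.61 with those genes left out. Doubly activated against control (0.06) had -0.0088 with plain totals and -0.015 in TPM, and against NF-kB-activated (0.12) 0.048 and -0.014. Lymphoma (0.41) had 0.22 in TPM. The summed mitochondrial level of doubly activated against NF-kB-activated (0.15) had 0.076 with plain totals and 0.019 in TPM, and lymphoma (0.0086) -0.11 in TPM. Without 1 library, nuclear sums ran from -0.068 to -0.047, 0.63 to 0.64, 0.037 to 0.084, 0.095 to 0.141 and 0.325 to 0.499 in this order, and mitochondrial sums from -0.338 to 0.044, -1.155 to -0.773, -0.192 to 0.190, 0.125 to 0.167 and -0.012 to 0.030. The causes were not tested. Depth limits the isoforms with fewer than 35 counts over a group.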
